A study of Mus musculus with 48 samples.

Results

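The metalloprotease genes of the ADAM, ADAMTS and MMP families, the ADAMTS-like genes, the tissue inhibitors of metalloproteases (TIMP) and Reck were followed in 2 lines of mouse NIH 3T3 fibroblasts. Members were all symbols of the exon table built as Adam, Adamts, Adamtsl or Mmp followed by a number, Timp followed by a digit, or Reck. This gave 29 of 11313 genes, namely 7 ADAM, 9 ADAMTS, 2 ADAMTSL, 7 MMP and 3 TIMP genes and Reck. One line carried a control hairpin (shCTRL) and the other a hairpin against Bmal1 (shBmal1), the gene that the tables call Arntl and that encodes a core activator of the circadian clock. Cells of both lines grew in medium with 10% fetal bovine serum, were given 50% horse serum for 2 h, and were sampled at 12 time points, every 2 h from 24 to 46 h. Each culture gave a library of total RNA and a library of RNA that had incorporated 4-thiouridine (4sU), which marks newly made transcripts, so that there were 4 groups of 12 libraries with 1 library at each time point. A larger share of the RNA went into the 4sU pull-down in shBmal1 than in shCTRL, as the labels' protocol says, and the part of that difference in the 4sU results was not tested.

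ADAM proteins are membrane-bound proteases that cut the outer parts of receptors, ligands and adhesion proteins from the cell surface, a step called shedding. ADAMTS proteins are secreted relatives that trim procollagens, proteoglycans and microfibril proteins, and ADAMTS-like proteins share their accessory domains without the protease. MMP proteins cleave collagens, gelatins and other matrix proteins, are made as inactive precursors, and are held in check by the TIMP proteins and by RECK, an inhibitor anchored in the membrane. Fibroblasts are a main source of these enzymes and of the matrix that they act on.

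Levels are given as RPKM (reads per kilobase of feature, set against the mapped reads of the library), scaled to the typical library of the same kind. Exon RPKM of total RNA measured the RNA level, intron RPKM of 4sU RNA measured newly made, unspliced RNA, and the ratio of 4sU to total exon RPKM of the same culture set new RNA against the RNA present. Depth was 48873013 to 76260143 reads per library. Between-line differences are log2 values, shBmal1 minus shCTRL, with their standard error from limma, and were called at a Benjamini-Hochberg adjusted p under 0.05 over all genes tested. With 1 library per time point and 1 line of each kind, every p measured the spread of single libraries around fitted time curves, and the spread between independent lines is unknown. Over all genes, the median distance of a total RNA library from those curves was 0.0402 to 0.111 (log2) in shCTRL and 0.0476 to 0.128 in shBmal1, with the highest values at 30 h and 32 h in that order. Arntl, the targeted gene, was at 9.24 ± 6.02 RPKM in shCTRL and 3.74 ± 0.723 in shBmal1 (SD, n = 12). That difference was -0.92 ± 0.081 (limma adjusted p = 3.59e-09), and the shBmal1 value was the lower one at 9 of 12 time points. Of 9 fibroblast markers measured, 6 were lower and 3 higher in shBmal1, with a summed level of 5290 to 6240 RPKM in shCTRL libraries and 4680 to 5410 in shBmal1. Vim and Fn1 made up most of that sum. In shCTRL and shBmal1, Vim averaged 2000 and 2170 RPKM, and Fn1 1880 and 1100 RPKM. Pdgfra fell from 70.5 to 22 RPKM (-1.69 ± 0.0521) and Dcn from 134 to 53.1 RPKM (-1.37 ± 0.0918). Of markers of other cell types, the 4 leukocyte genes analysed summed to 14.2 to 21.5 and 17.9 to 24 RPKM, of which Lyz2 alone was called, at 3.73 and 6.67 RPKM (0.84 ± 0.0685, limma adjusted p = 1.07e-09). Krt14, an epithelial keratin, averaged 3.14 and 9.79 RPKM, and Cdh5, an endothelial cadherin, 0.378 and 0.609 RPKM. The part of such marker differences in the protease results was not tested, and in bulk RNA fewer cells of a type cannot be told apart from less RNA per cell.

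RefSeq promoter windows of build GRCm38.p6, each 300 bases with 250 before the annotated start, were matched by symbol to 19 of the 29 genes (21 windows, since Adam19 has 3). The clock activator complex binds the letters CACGTG, clock nuclear receptors bind sites built on AGGTCA, and AP-1 factors bind TGANTCA. The letters GGGCGG are the core of a site for Sp factors, and a TATA box was searched as TATAAA. Each motif was searched on both strands, and matches of different motifs were counted whether or not they overlapped. CACGTG stood in 2 of the 21 windows (Adam10 and Adam19), against 7.15% of all 32851 windows of mouse genes, expressed or not. AGGTCA stood in 3 (Adam19 in 2 windows and Adamtsl5; 16.3% of all windows), TGANTCA in 1 (Adam19; 7.81%) and TATAAA in 1 (Adamts1; 13.6%). GGGCGG stood in 18 of the 21 windows, against 35.7% of all windows. Of the genes whose time courses differed between the lines, Adamts14 has a window that holds only GGGCGG of these motifs and is not shown. The windows shown are those of Mmp11 and Timp3, whose time courses also differed, and 1 each of Adam19 and Adam10 because they hold CACGTG. They lie at chr10:75932453-75932752 (Mmp11, minus strand), chr10:86300162-86300461 (Timp3, plus strand), chr11:46054252-46054551 (Adam19, plus strand) and chr9:70678732-70679031 (Adam10, plus strand). Capitals mark the motif matches on either strand.
Mmp11: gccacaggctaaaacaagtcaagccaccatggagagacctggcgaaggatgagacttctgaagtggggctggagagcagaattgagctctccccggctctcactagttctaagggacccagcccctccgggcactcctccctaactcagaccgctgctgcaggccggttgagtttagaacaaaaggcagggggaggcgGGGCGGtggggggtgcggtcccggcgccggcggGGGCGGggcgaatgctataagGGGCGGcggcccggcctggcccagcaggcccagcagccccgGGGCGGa
Timp3: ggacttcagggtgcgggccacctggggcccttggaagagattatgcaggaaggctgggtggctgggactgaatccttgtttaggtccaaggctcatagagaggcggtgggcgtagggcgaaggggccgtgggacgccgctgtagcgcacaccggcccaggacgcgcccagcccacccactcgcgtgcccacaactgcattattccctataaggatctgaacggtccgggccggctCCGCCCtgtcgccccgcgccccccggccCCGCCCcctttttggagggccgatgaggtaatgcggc
Adam19: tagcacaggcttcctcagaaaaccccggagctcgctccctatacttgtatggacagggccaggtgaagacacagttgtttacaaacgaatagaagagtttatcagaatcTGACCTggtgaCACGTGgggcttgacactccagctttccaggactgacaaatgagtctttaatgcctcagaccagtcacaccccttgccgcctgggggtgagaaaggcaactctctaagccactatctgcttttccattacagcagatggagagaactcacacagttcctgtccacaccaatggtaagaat
Adam10: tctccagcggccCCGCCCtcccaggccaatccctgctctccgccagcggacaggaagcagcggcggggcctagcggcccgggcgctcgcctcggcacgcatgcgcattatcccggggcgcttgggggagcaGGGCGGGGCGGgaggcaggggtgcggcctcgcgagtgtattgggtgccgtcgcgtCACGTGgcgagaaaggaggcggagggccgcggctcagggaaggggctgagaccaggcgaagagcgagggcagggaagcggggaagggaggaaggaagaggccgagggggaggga
In the Mmp11 window the only motif found was GGGCGG, at -52, -19, 2 and 43 counted from the annotated start, and in the Timp3 window it was GGGCGG at -15 and 13. The Adam19 window holds CACGTG at -130 and AGGTCA at -141. The Adam10 window holds CACGTG at -64 beside GGGCGG at -238, -119 and -114. A match says only that these letters are present in the window.

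In shCTRL, inhibitor and gelatinase RNA dominated. Timp2 had the highest mean exon level, 567 ± 36.3 RPKM (SD, n = 12) or 30.1% of the sum over the 29 genes. It was followed by Mmp2 (gelatinase A) at 485 ± 52.4 RPKM and Mmp14, the membrane-type protease that activates pro-MMP2 together with TIMP2, at 259 ± 31.6 RPKM. Mmp11 (stromelysin-3), at 145 ± 48.4 RPKM, and Timp3, the inhibitor that binds to matrix, at 103 ± 18.9 RPKM, differed by less than the spread of Mmp11 over time. The highest genes of the other families were Adamtsl5 at 56.5 ± 4.23 RPKM, Adam15 at 47.8 ± 2.99 RPKM and Adamts7 at 28.5 ± 2.3 RPKM, while Reck was at 6.67 ± 0.366 RPKM. The lowest were Adam11, an ADAM without an active protease site, at 0.731 ± 0.122 RPKM and Adam8 at 0.502 ± 0.163 RPKM, which rested on 55 to 153 exon reads per shCTRL library. All 29 genes passed the filter of a mean of 0.5 exon RPKM, and 24 passed that of 0.1 intron RPKM. The introns of Adam8, Adamts12, Mmp24 and Mmp9 were below it in both kinds of RNA, those of Adamts2 in total RNA and those of Adam11 in 4sU RNA.

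**Figure D1:**
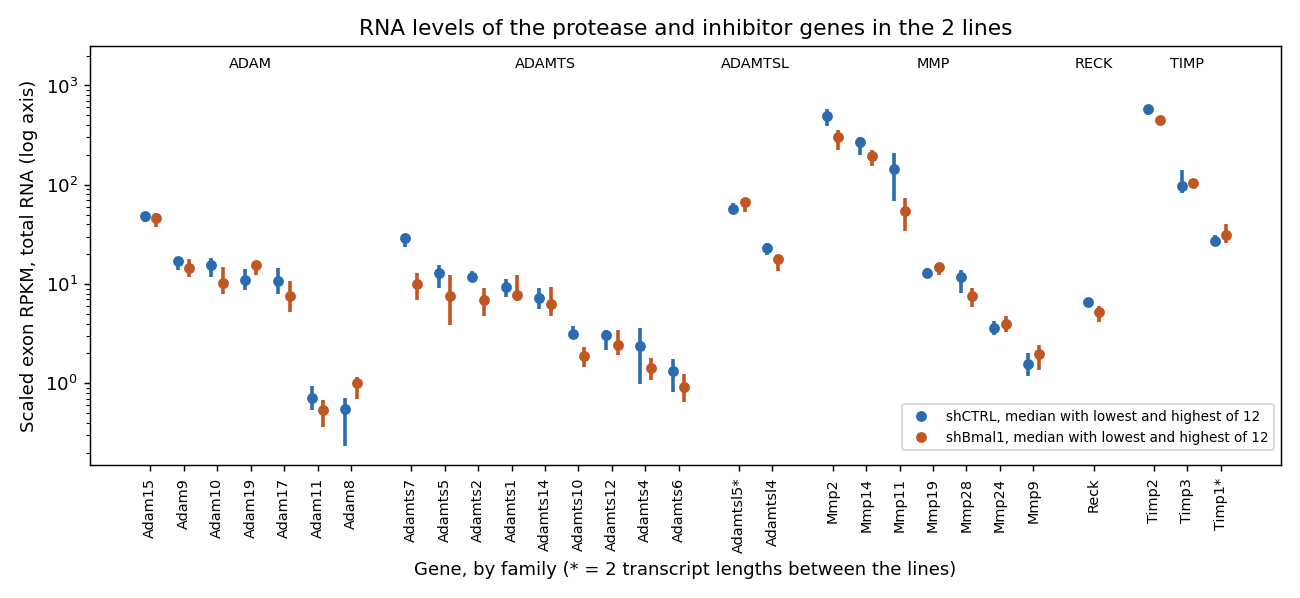
Scaled exon RPKM of total RNA (log axis) for the 29 genes by family, with points at the median and lines from the lowest to the highest of 12 libraries per line. Timp2 (504 to 608 RPKM in shCTRL, 397 to 477 in shBmal1) and Mmp2 (394 to 577 and 226 to 357) stand highest, and the lines do not overlap for either gene.

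Most protease genes were lower in shBmal1. In total exon RNA, 19 of the 29 genes were lower and 7 were higher, against 33.1% and 34.4% of all 10906 genes tested. The median difference was -0.40 over the 29 genes and 0.01 over all genes. The direction was lower in 8 of 9 ADAMTS, 4 of 7 ADAM and 4 of 7 MMP genes, in Adamtsl4, Timp2 and Reck, while 2 ADAM and 3 MMP genes were higher. Past a log2 difference of 1, 2 genes were lower (Adamts7 and Mmp11; 1.36% of all genes) and 0 were higher (0.88%). Without further scaling the median over all genes was 0.09, and 17 of the 29 were lower and 8 higher, against 2606 and 4985 genes in the whole table. Adamtsl5 and Timp1, both among the 7 higher, carried 2 transcript lengths in this layer, so their direction is not read. With lengths of 4089 bases in shCTRL and 3497 in shBmal1, Adamtsl5 was at 0.20 per length and -0.02 without it. Timp1, with 822 and 872 bases, was at 0.18 and 0.27.

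Of the ADAMTS genes, Adamts7 (chr9:90162904-90200102), a protease of cartilage oligomeric matrix protein, differed the most. Its exon level ran from 23.5 to 32.3 RPKM in shCTRL with a median of 28.8, and from 6.86 to 12.8 RPKM in shBmal1 with a median of 9.96. Every shBmal1 library was below every shCTRL library, and the difference was -1.54 ± 0.0625 (limma adjusted p = 2.03e-14). Adamts12, which shares that substrate, differed by -0.22 ± 0.0588 (adjusted p = 0.0026), and its ranges of 2.16 to 3.42 and 1.94 to 3.41 RPKM overlapped; as deposited its adjusted p was 0.0615.

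The procollagen N-proteinase genes, whose products remove the amino-terminal propeptide of fibrillar collagens, differed from each other in size. Adamts2 (chr11:50602085-50807573) ran from 10.8 to 13.5 RPKM in shCTRL (median 11.9) and from 4.77 to 9.06 in shBmal1 (median 6.85). The lines did not overlap, at -0.82 ± 0.0523 (limma adjusted p = 2.34e-11). Adamts14 was at -0.14 ± 0.0593 (adjusted p = 0.0384) with overlapping ranges, 5.67 to 9.2 RPKM in shCTRL and 4.78 to 9.29 in shBmal1. That call was kept with 4 of the 12 time points left out in turn (adjusted p 0.00863 to 0.129) and ended in the fits without time terms (adjusted p = 0.201), with time point as a block (0.222) and as deposited (0.347).

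Adamts4 and Adamts5 encode aggrecanases and Adamts1 a protease that cuts versican, all proteoglycans of the matrix. Adamts5 (chr16:85858157-85901125) ran from 9.22 to 15.7 RPKM in shCTRL (median 12.8) and from 3.89 to 12.3 in shBmal1 (median 7.62). The ranges overlapped, yet the shBmal1 value was lower at 12 of 12 time points, and the difference was -0.71 ± 0.0871 (limma adjusted p = 4.38e-07). Its neighbour Adamts1, 55043 bases away on chromosome 16, was at -0.12 ± 0.0567 (adjusted p = 0.0755; lower at 10 of 12 time points), with 7.47 to 11.2 RPKM in shCTRL and 6.81 to 12.3 in shBmal1. With time point as a block its adjusted p was 0.0429. Adamts4 differed by -0.53 ± 0.0595 (adjusted p = 1.26e-07), and its time course is described below. Of the genes of fibrillin-binding proteases, Adamts10 was at -0.72 ± 0.0708 with no overlap (2.79 to 3.78 against 1.45 to 2.33 RPKM), and Adamts6 at -0.45 ± 0.0892 with overlap.

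Among the sheddases, the principal enzymes were lower and 2 others higher. Adam10 (chr9:70678944-70780229), which cuts Notch receptors, ran from 11.7 to 18.3 RPKM in shCTRL (median 15.7) and from 7.89 to 14.8 in shBmal1 (median 10.2), a difference of -0.63 ± 0.0687 (limma adjusted p = 8.61e-08). Adam17 (chr12:21323509-21373632), the tumour necrosis factor converting enzyme, ran from 7.88 to 14.5 RPKM (median 10.8) and from 5.18 to 10.8 (median 7.52), a difference of -0.55 ± 0.0671 (3.99e-07). For both genes the ranges overlapped while the shBmal1 value was lower at 12 of 12 time points. Adam9 and Adam11 were at -0.21 ± 0.0414 and -0.42 ± 0.0919. Adam15, the most abundant ADAM gene, was at -0.08 ± 0.0496 (adjusted p = 0.145), with 42 to 52.6 RPKM in shCTRL and 37.2 to 51.4 in shBmal1.

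Adam8 (chr7:139978932-139995207), best known from leukocytes, ran from 0.232 to 0.709 RPKM in shCTRL (median 0.553) and from 0.697 to 1.15 in shBmal1 (median 1). It was higher in shBmal1 at 12 of 12 time points, by 0.90 ± 0.107 (limma adjusted p = 2.47e-07), at levels near 1 RPKM. Of the leukocyte markers, Lyz2 was also higher, while Cd68 (0.25), Cd14 (0.04) and Csf1r (0.01) were not called. The part of the Lyz2 difference in that of Adam8 was not tested. Adam19 (chr11:46054502-46147347), meltrin beta, which processes neuregulin, ran from 8.63 to 14.1 RPKM in shCTRL (median 11.1) and from 12.4 to 17.2 in shBmal1 (median 15.4). It was higher at 11 of 12 time points, by 0.40 ± 0.0399 (adjusted p = 2.41e-08).

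Of the MMP genes, the abundant ones were lower. Mmp11 (chr10:75923221-75932502) ran from 68.9 to 208 RPKM in shCTRL (median 145) and from 34.2 to 73.3 in shBmal1 (median 53.8). Only the troughs of shCTRL reached the shBmal1 range, the shBmal1 value was lower at 12 of 12 time points, and the difference was -1.42 ± 0.068 (limma adjusted p = 2.57e-13). Mmp2 (chr8:92827290-92853421) ran from 394 to 577 RPKM (median 497) and from 226 to 357 (median 306), without overlap, a difference of -0.72 ± 0.0486 (5.55e-11). Mmp14 (chr14:54431598-54442456) ran from 201 to 300 RPKM (median 270) and from 154 to 222 (median 195), a difference of -0.45 ± 0.0368 (1.07e-09). Mmp28 (epilysin) was at -0.59 ± 0.0599 and lower at 12 of 12 time points. The 3 MMP genes that were higher were Mmp9 (gelatinase B), by 0.22 ± 0.0758, Mmp24, by 0.15 ± 0.0575, and Mmp19, by 0.11 ± 0.0345. Mmp9, at 1.19 to 2.04 and 1.37 to 2.44 RPKM, was not called without time terms (adjusted p = 0.0688) or with time point as a block (0.0523).

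Of the inhibitor genes, Timp2 and Reck were lower, Timp3 was not called, and the direction of Timp1 is not read. Timp2 (chr11:118301061-118355411) ran from 504 to 608 RPKM in shCTRL (median 574) and from 397 to 477 in shBmal1 (median 452), without overlap, a difference of -0.35 ± 0.0352 (limma adjusted p = 2.07e-08). Reck was at -0.40 ± 0.0423 (4.87e-08), with 5.91 to 7.25 and 4.11 to 5.97 RPKM, and lower at 12 of 12 time points. Timp3 averaged 103 ± 18.9 RPKM in shCTRL and 105 ± 6.41 in shBmal1, a difference of 0.05 ± 0.0362 (adjusted p = 0.212); as deposited it was called, at 0.14 (0.00327). Timp1 was at 24.7 to 31.3 RPKM in shCTRL and 26.1 to 40.2 in shBmal1, per its 2 lengths. Of the ADAMTS-like genes, Adamtsl4, whose product binds fibrillin-1, was lower without overlap (19.6 to 26.1 against 13.5 to 18.6 RPKM), at -0.45 ± 0.0527. Adamtsl5 ran from 50.4 to 65.9 and from 53.5 to 73.5 RPKM, per its 2 lengths.

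Several of these genes overlap another gene of the table, and no source used here says whether counting used the strand, so their reads are uncertain to that extent. Timp1 lies within Syn1, Timp3 within Syn3, and Timp2 shares 10183 bases with Cep295nl. Mmp19 shares 2739 bases with Tmem198b, which differed by 0.42. Adam17, Mmp24 and Mmp28 share 99, 638 and 465 bases with Iah1, BC029722 and 1700020L24Rik.

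**Figure D2:**
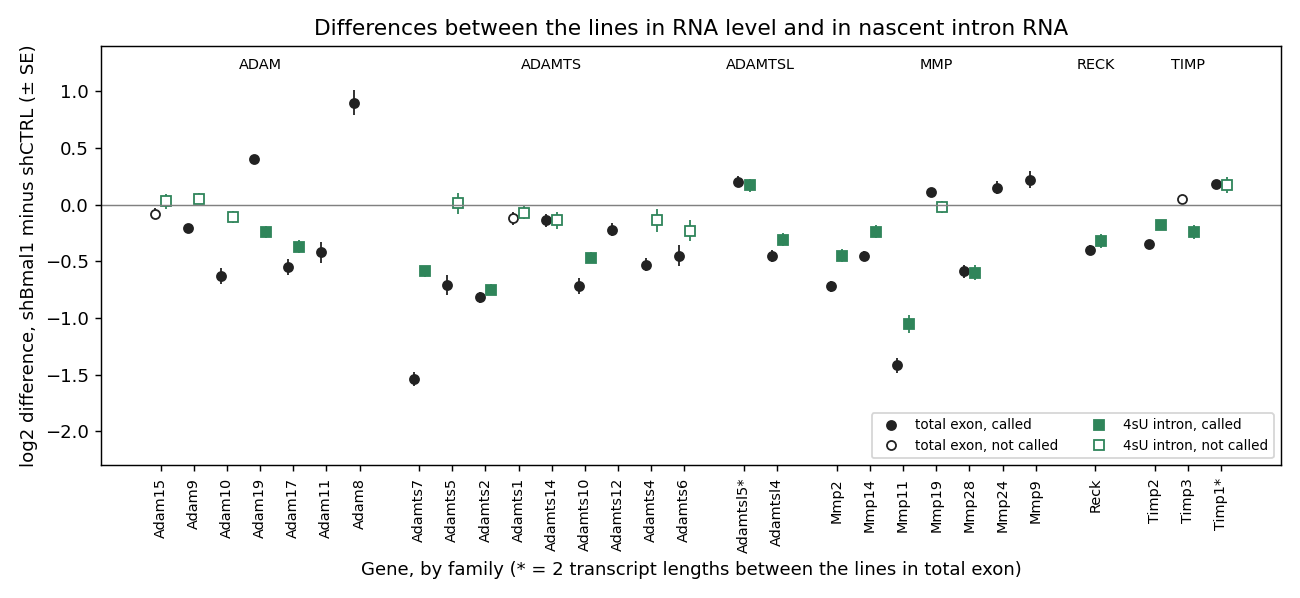
Log2 difference between the lines, shBmal1 minus shCTRL, with its SE for each gene by family, in total exon RNA (circles, 29 genes) and in 4sU intron RNA (squares, 24 genes). Filled symbols passed an adjusted p under 0.05; Adamts7 and Mmp11 lie lowest in total exon, Adam8 highest, and Adamtsl5, called higher in 4sU intron, turns to -0.31 with RPKM as deposited.

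Newly made RNA showed the same lean. In 4sU exon, 16 of 29 genes were lower and 4 higher (26.9% and 27.5% of 11011 genes), and in total intron 18 of 24 were lower and 2 higher (26.8% and 29.3% of 10011). Genes of 1 length made up 14 and 3 of these counts in 4sU exon, and 17 and 2 in total intron. In 4sU intron, 13 of 24 were lower and 1 higher (22.3% and 22.1% of 10494). The medians over the members were -0.26, -0.27 and -0.23 in that order, against 0.00, 0.01 and 0.00 over all genes. Deposited intron RPKM was not on one scale between the lines, since the totals behind the shBmal1 4sU values were 1.3482 to 1.3941 times the exon totals. As deposited the median of all genes in 4sU intron was -0.45, and 24 of 24 members were lower and 0 higher, so directions in that layer are relative to all genes.

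Mmp11 introns in 4sU RNA ran from 6.21 to 16.6 RPKM in shCTRL (median 13.8) and from 3.93 to 8.13 in shBmal1 (median 5.81). They were lower at 12 of 12 time points, by -1.05 ± 0.0798 (limma adjusted p = 7.41e-09). Those of Adamts2 ran from 0.154 to 0.225 and from 0.0783 to 0.137 RPKM, without overlap, at -0.75 ± 0.0469 (4.01e-10). Those of Adamts7, at 3.08 to 4.18 and 1.97 to 3 RPKM, also did not overlap, at -0.59 ± 0.0481 (2.04e-08), against -1.54 at the level of total exon RNA. Mmp28, Adamts10 and Mmp2 were at -0.60 ± 0.0625, -0.47 ± 0.0475 and -0.45 ± 0.0581, Adam17 at -0.37 ± 0.0558 and Reck at -0.32 ± 0.0622. Adamtsl4, Mmp14 and Timp2 were at -0.31 ± 0.0586, -0.24 ± 0.0592 and -0.18 ± 0.047.

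For some genes exon and intron values parted. Adam19 was higher in shBmal1 in exons, by 0.40 in total and 0.28 ± 0.0453 in 4sU RNA, and lower in introns, by -0.27 ± 0.0502 in total and -0.24 ± 0.055 in 4sU RNA (limma adjusted p = 0.000173 and 0.00152). Its 4sU intron level ran from 0.443 to 0.861 RPKM in shCTRL and from 0.42 to 0.671 in shBmal1. Timp3 was not called in exons of either kind (0.05 in both) and was lower in introns of both (-0.24 ± 0.0518 and -0.24 ± 0.0598). Adamts5 was at -0.71 in total exon, -0.40 ± 0.0962 in 4sU exon and 0.01 ± 0.0904 in 4sU intron (adjusted p = 0.931). Adam10 went from -0.63 in total exon to -0.11 ± 0.0546 in 4sU intron (adjusted p = 0.10), and Adam9 from -0.21 to 0.05 ± 0.0478. The differences between layers were tested only as the ratio of 4sU to total exon RNA. Adam9 in total intron carried 2 lengths (34189 and 63326 bases) and was at -0.89 per length and 0.00 without it.

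The ratio of 4sU to total exon RNA was higher in shBmal1 for 9 of 29 genes and lower for 2, against 15.9% and 12.1% of 10866 genes; from RPKM as deposited it was higher for 6 and lower for 3. Adamts5 was higher by 0.31 ± 0.032 (limma adjusted p = 1.49e-06) and Timp2 by 0.19 ± 0.026 (4.04e-05), both at 12 of 12 time points. Mmp11, Mmp2, Mmp14 and Adamtsl4 were higher by 0.14 ± 0.0318, 0.13 ± 0.0288, 0.11 ± 0.033 and 0.11 ± 0.0306, and Adamts10 and Adamts1 by 0.15 ± 0.0504 and 0.10 ± 0.0355. Adamts7 was at 0.52 ± 0.0345, but its 4sU exon RPKM carried 2 lengths, 5332 bases in shCTRL and 5291 in shBmal1. Without length its 4sU exon difference was -1.03, against -1.02 per length. Adam19 was the gene of 1 length with a lower ratio, by -0.11 ± 0.0272 (adjusted p = 0.0051). The other gene with a lower ratio, Adamtsl5, carried 2 lengths.

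Time courses were fitted with a 24-h and a 12-h wave per line, where the amplitude, in log2 units, runs from the mean of the curve to its top. One cycle was sampled, so that a 24-h wave cannot be told apart from a slow change that does not repeat. In shCTRL, 8 of 29 genes were called for a 24-h wave in total exon (3.6% of all genes), and in shBmal1 13 of 29 (11.1%). Of the 18 genes called in either line, Adamts4, Mmp11 and Mmp14 were called in both. A difference of the wave between the lines was called for 5 genes (0.807% of all genes): Adamts4, Adamts14, Adam19, Timp3 and Mmp11. With 1 time point left out the shBmal1 count ran from 5 (without 40 h) to 15 (without 32 h), and the count of differing waves was 2 without 44 h. With a linear term for time, the difference of waves was called for Adamts4 (limma adjusted p = 0.00702) and Adam19 (0.0381), and not for Mmp11 (0.0569), Adamts14 (0.0701) or Timp3 (0.0991). For a 12-h wave 0 genes were called by limma in shCTRL (0% of all genes) and 0 in shBmal1 (0.0183%), while 3 and 11 had an unadjusted p under 0.05, against 3.23% and 24.2% of all genes.

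Peaks of the shCTRL calls lay between 32 and 39 h for 7 of 8 genes, 3 of them between 32 and 36 h and 4 between 36 and 39 h, where 6.62% and 18.1% of all called genes had theirs. In shBmal1, 11 of 13 peaks lay between 39 and 44 h, against 37.8% of all called genes. These windows differ in width and were not fixed in the planned tests. The shares therefore describe where the peaks fell, and no excess over all called genes is read from them. None of the 13 shBmal1 calls remained with a linear term for time added, with which 0 genes of the families were called in that line. Their amplitudes then ran from 0.08 (Mmp14 and Mmp19) to 0.28 (Adamts4), against 0.14 (Mmp19) to 0.48 (Adamts5) without it. Adamts4 stayed at 0.28 (limma adjusted p = 0.277). Over the single cycle sampled, a linear term can take up part of a 24-h wave, so a lost call does not tell a wave from a slow change. In shCTRL the calls of Adam17, Adam19, Adamts4, Mmp11, Timp3 and Adam8 held with that term, and those of Adamts12 (adjusted p = 0.703) and Mmp14 (0.0583) did not.

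**Figure D3:**
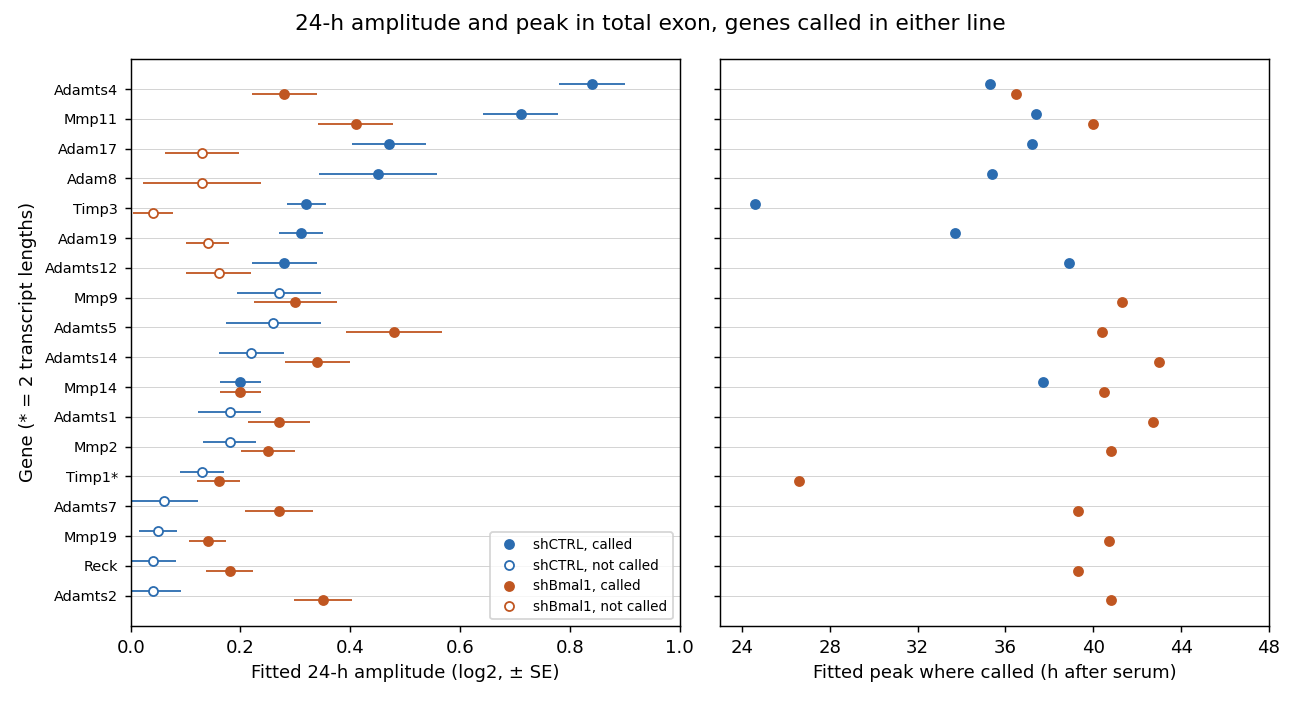
Fitted 24-h amplitude with its SE (left, log2) and fitted peak where called (right, h after serum) for the 18 genes called in either line in total exon RNA. Adamts4 (0.84) and Mmp11 (0.71) have the largest amplitudes in shCTRL, and 11 of 13 shBmal1 peaks lie between 39 and 44 h.

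Adamts4 (chr1:171250129-171262267) had the largest wave. In shCTRL its exon level, with a median of 2.36 RPKM, was 0.981 RPKM at 26 h, 3.57 at 34 h and 1.19 at 46 h, and in shBmal1 it lay between 1.07 and 1.82 RPKM (median 1.43). The lines had about the same level at 24 h (1.1 and 1.07 RPKM) and parted between 28 and 42 h. Its amplitude was 0.84 ± 0.0595 with a peak at 35.3 h in shCTRL (limma adjusted p = 1.92e-08), a 3.21-fold range from trough to peak, and 0.28 ± 0.0595 at 36.5 h in shBmal1 (0.0125). The difference of the waves had an adjusted p of 0.0019, and it was called with each of the 12 time points left out in turn.

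Mmp11 was at 68.9 RPKM at 26 h, 208 at 38 h and 114 at 46 h in shCTRL. In shBmal1 it was at 34.2 RPKM at 24 h and 73.3 at 40 h. Its amplitude was 0.71 ± 0.068 at 37.4 h in shCTRL (limma adjusted p = 2.91e-06) and 0.41 ± 0.068 at 40 h in shBmal1 (0.00233). The difference of the waves was at the threshold, with an adjusted p of 0.05, and was called with 2 of the 12 time points left out, 30 h and 32 h. Mmp14 had amplitudes of 0.20 ± 0.0368 in both lines, at 37.7 and 40.5 h. With 24-h terms alone its shCTRL wave was not called (limma adjusted p = 0.0527).

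Adam17 stood at 7.88 to 8.26 RPKM from 24 to 30 h in shCTRL, at 13.4 to 14.5 from 32 to 40 h, and at 9.2 at 46 h. In shBmal1 the highest value, 10.8 RPKM, was that of 1 library at 34 h, and the others lay between 5.18 and 8.67. The amplitude was 0.47 ± 0.0671 at 37.2 h in shCTRL (limma adjusted p = 0.000568) and 0.13 ± 0.0671 in shBmal1 (0.419), and the difference of the waves had an adjusted p of 0.177. Adam19 was at 9.92 RPKM at 24 h, 14.1 at 34 h and 8.63 at 46 h in shCTRL, while in shBmal1 the lowest value was at 24 h (12.4) and the highest at 46 h (17.2). Its amplitudes were 0.31 ± 0.0399 at 33.7 h (0.000154) and 0.14 ± 0.0399 (0.0668), and the waves differed (adjusted p = 0.0073), except with 44 h left out (0.0754).

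Timp3 (chr10:86300412-86349505) ran the other way. In shCTRL it was at 141 RPKM at 26 h, 81.9 at 38 h and 113 at 46 h, and in shBmal1 between 97.8 and 115 RPKM throughout. Its amplitude was 0.32 ± 0.0362 with a peak at 24.6 h in shCTRL (limma adjusted p = 3e-05) and 0.04 ± 0.0362 in shBmal1 (0.674). The waves differed (adjusted p = 0.0172), a call that was lost without 24, 36, 38, 40 or 44 h (adjusted p 0.0538 to 0.138). Syn3, in whose span Timp3 lies, had an exon amplitude of 0.33 in shCTRL (0.000766), which cannot be told apart from that of Timp3 where their reads are shared. Adamts14 was at 9.2 RPKM at 30 h and 6.29 at 46 h in shCTRL, and at 5.01 and 9.29 RPKM at the same times in shBmal1. Its amplitudes were 0.22 ± 0.0593 at 33.7 h (adjusted p = 0.0841) and 0.34 ± 0.0593 at 43 h (0.00324), and the waves differed (0.00501) with each of the 12 time points left out in turn.

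**Figure D4:**
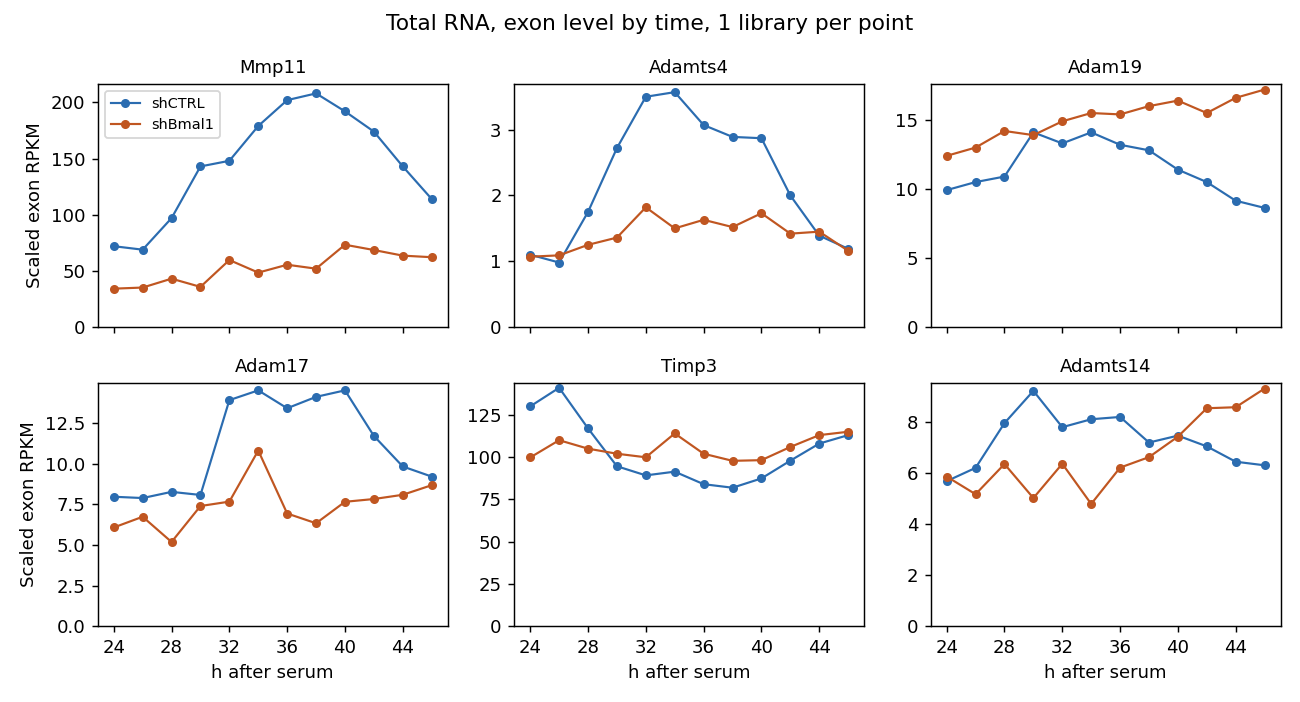
Scaled exon RPKM of total RNA against time after serum for 6 genes, 1 library per point, shCTRL in blue and shBmal1 in orange. Mmp11, Adamts4 and Adam17 rise to 208, 3.57 and 14.5 RPKM in shCTRL, Timp3 dips to 81.9, and Adamts14 has its highest shBmal1 value, 9.29, at 46 h.

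The remaining shCTRL calls were Adam8 (0.45 ± 0.107 at 35.4 h, adjusted p = 0.0432 by limma) and Adamts12 (0.28 ± 0.0588 at 38.9 h, 0.0173). Adam8 was called with only 2 of the 12 time points left out in turn, and not with a larger pseudocount (0.0669). In shBmal1, Adamts5 had the largest amplitude, 0.48 ± 0.0871 at 40.4 h (0.00421). Its level was lowest at 24 h, 3.89 RPKM, and highest at 46 h, 12.3 RPKM, and with a linear term its amplitude was 0.10 (0.86). Adamts2, Mmp9, Adamts1, Adamts7 and Mmp2 had amplitudes of 0.35, 0.30, 0.27, 0.27 and 0.25 in shBmal1, at 39.3 to 42.7 h. Those of Reck, Timp1 and Mmp19 were 0.18, 0.16 and 0.14, with the Timp1 peak at 26.6 h. Of the 12 time points left out in turn, the shBmal1 call was kept with 8 for Reck, 7 for Adamts7, 5 for Mmp9, and 4 each for Timp1 and Mmp19. With 24-h terms alone, Reck (0.0529) and Timp1 (0.111) were not called. The 24-h difference between the lines was not called for any of these 11 genes, with the lowest adjusted p for Adamts2 (0.0542), whose shCTRL amplitude was 0.04.

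In newly made RNA, 7 genes in shCTRL (1.98% of all genes) and 8 in shBmal1 (18% of all genes) were called for a 24-h wave in 4sU exon. In 4sU intron 4 genes were called in shCTRL (1.12% of all genes), Adam17, Adam19, Adamts4 and Mmp11, with peaks at 32.8 to 36.3 h. In shBmal1 there were 3 (5.82% of all genes), Adamts1, Adamts14 and Mmp14, with peaks at 41.1 to 42.8 h. Adamts4 introns were at 0.333 RPKM at 34 h and 0.0537 at 46 h in shCTRL, and between 0.119 and 0.248 in shBmal1, on 22 to 136 reads per library. Their amplitude in shCTRL was 0.89 ± 0.103 at 34.4 h (limma adjusted p = 0.00022). Mmp11 introns were at 6.21 RPKM at 24 h and 16.6 at 36 h in shCTRL, with an amplitude of 0.68 ± 0.0798 at 36.3 h (0.000241), against 37.4 h in total exon. Adam17 and Adam19 introns had amplitudes of 0.43 ± 0.0558 at 36.2 h and 0.35 ± 0.055 at 32.8 h. Those of Timp3 had one of 0.15 ± 0.0598 (adjusted p = 0.405).

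A difference of the wave between the lines was called in 4sU intron for Mmp11 (limma adjusted p = 0.0399) and Adamts14 (0.0467), 2 of 24 genes and 0.286% of all genes. Adamts14 introns were at 0.465 RPKM at 30 h and 0.324 at 46 h in shCTRL, and at 0.234 and 0.528 RPKM in shBmal1. The Mmp11 call was kept only without 30 h or 32 h, and the Adamts14 call only without 24, 32 or 46 h, with adjusted p up to 0.21 and 0.251. With a linear term both were lost (0.065 and 0.513) and Adamts4 was called (0.0397). As deposited 0 genes were called.

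**Figure D5:**
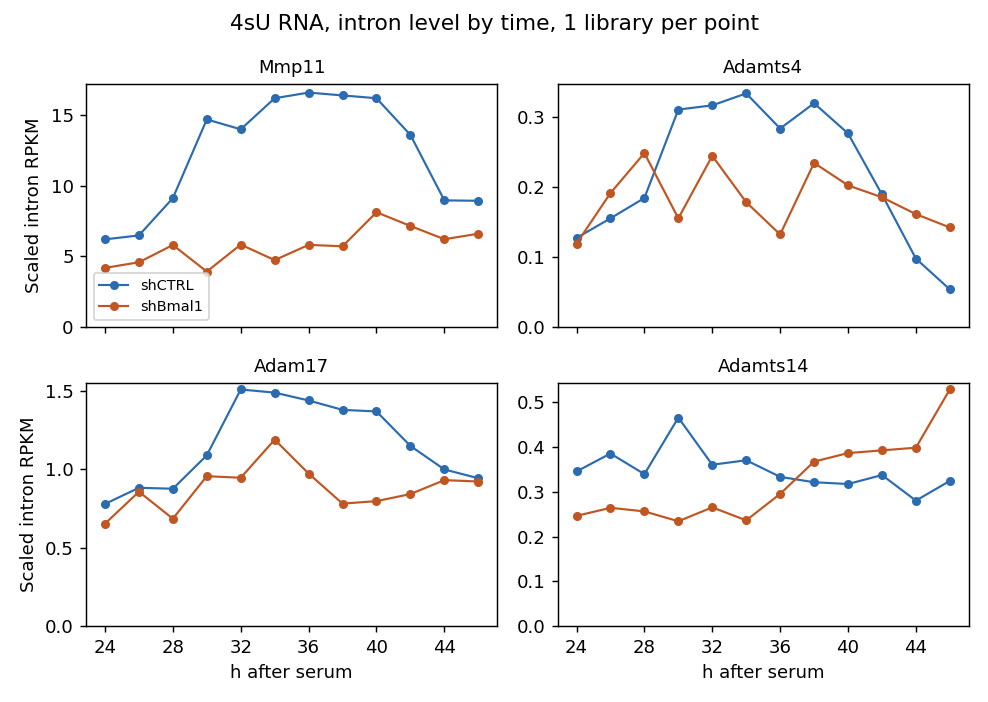
Scaled intron RPKM of 4sU RNA against time after serum for 4 genes, 1 library per point, shCTRL in blue and shBmal1 in orange. Mmp11 peaks at 16.6 RPKM in shCTRL and 8.13 in shBmal1, and Adamts14 crosses between the lines, from 0.465 against 0.234 at 30 h to 0.324 against 0.528 at 46 h.

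Genes that act with these proteases were read from lists chosen for their roles. Of 6 tetraspanin and iRhom partners, which bring ADAM10 and ADAM17 to the cell surface, 5 were lower in total exon and 1 higher (median -0.18). Tspan15, a partner of ADAM10, was at -0.31 ± 0.0815, and Frmd8, which binds iRhom proteins, at 0.20 ± 0.0524. In 4sU intron 4 of the 6 were lower and 1 higher. Neither of 2 proprotein convertases, which activate ADAM, ADAMTS and several MMP precursors, was called, with Furin at 0.00 ± 0.0566. All 4 measured genes of the plasminogen system, which can activate MMP precursors, were higher (median 0.76), with Plau (urokinase) at 1.59 ± 0.139 (limma adjusted p = 3.2e-09) and Plat (tissue plasminogen activator) at 0.21 ± 0.0304. Plaur, the urokinase receptor, carried 2 lengths in total exon and was higher by 0.29 ± 0.0544 in 4sU intron, where 1 of 3 genes of the list was called.

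Of 9 binding and clearance partners, 7 were lower and 2 higher (median -0.16). Lrp1, the receptor that takes up several MMP, ADAMTS and TIMP proteins, was at -0.93 ± 0.0496 (limma adjusted p = 1.59e-12). Thbs1, a matrix glycoprotein, was at -0.88 ± 0.0573, Bsg, an inducer of MMP genes, at 0.43 ± 0.0492 and Cd44 at 0.32 ± 0.0303. Of 12 transcription factors of MMP genes 3 were lower and 3 higher, with Ets2 at -0.84 ± 0.0489 and Fosl1 at 0.46 ± 0.0646. Of 21 shed substrates 11 were lower and 6 higher (median -0.17), with Pdgfrb at -0.74 ± 0.0452, Epha2 at 1.22 ± 0.0621 and Hbegf at 0.70 ± 0.0836. Of 13 matrix substrates 5 were lower and 6 higher (median 0.08), with Dcn (decorin) at -1.37 ± 0.0918 and Tnc (tenascin C) at 0.63 ± 0.0792. These shares stand beside 33.1% lower and 34.4% higher among all genes.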

How the data were processed

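The authors deposited RPKM per gene for exons and introns in 48 libraries. The submitters' processing notes name Trim Galore and HOMER (version 4.11.1) and the builds mm10 and GRCm38.p6; neither the aligner nor the use of strand in counting was given in the sources used here. Per the labels, libraries were strand-specific and depleted of ribosomal RNA. Library totals and transcript lengths were recovered from the deposited RPKM, whose low values were whole multiples of 1 read, within 0.02 of a read. Of 11313 genes, 630 carried 2 lengths between the lines in total exon RPKM; such genes are given with and without length and not read for direction. Values were scaled by the median ratio to the geometric mean library of each layer and tested as log2(RPKM + 0.1) for exons and log2(RPKM + 0.02) for introns, where the mean was at least 0.5 or 0.1. A difference is on that scale, which understates changes of low genes. For each layer, limma 3.58.1 (R 4.3.3; robust empirical Bayes with a mean-variance trend) was given a mean and 24-h and 12-h cosine and sine terms per line; waves were tested with moderated F tests. Yeast spike-ins were not analysed here, and values of some partner and overlapping genes are not reported here. P-values were adjusted over all genes of the layer. Members with an absolute log2 difference of at least 0.8, a called 24-h wave or the highest mean of their family were described in full. Of each partner list, the called gene with the largest difference in each direction was named, with up to 3 more whose products bind or activate a named member. The members and lists were chosen with earlier results of these data known. Alternatives were another pseudocount, no further scaling, no or a stricter filter, each time point left out, no time terms, time point as a block, 1-length genes alone, a linear time term and 24-h terms alone.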

Additional observations from a re-analysis of the deposited data

Results flagged for a closer look

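The 24-h wave differed between shCTRL and shBmal1 by a test of that difference in total exon for 5 genes. The limma adjusted p of the difference was 0.0019 for Adamts4, 0.00501 for Adamts14, 0.0073 for Adam19, 0.0172 for Timp3 and 0.05 for Mmp11. Adamts4 and Adamts14 kept the call with each of the 12 time points left out in turn. Adam19 kept it with 11, Timp3 with 7 and Mmp11 with 2 of them. With a linear term for time, Adamts4 (0.00702) and Adam19 (0.0381) kept it.

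In 4sU intron the wave differed for Adamts14 (0.0467) and Mmp11 (0.0399). These kept the call with 3 and 2 of the 12 time points left out. Amplitudes were 0.17 and 0.41 in shCTRL and shBmal1 for Adamts14, and 0.68 and 0.31 for Mmp11. In this layer the difference was not called for Adamts4 (adjusted p = 0.0673), Adam19 (0.117) or Timp3 (0.841).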

How the results depend on the processing

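Of 1106 alternative values of 60 results for single genes, 997 kept their side of the threshold, 91 fell below it and 17 passed it. The remaining 1 was a called result that reversed, Adamtsl5 in 4sU intron, at -0.31 with RPKM as deposited. Reversals were counted only for results called in the main fit, and some uncalled ones also changed sign. In 4sU intron as deposited, Adam15 went from 0.03 to -0.45, Adamts5 from 0.01 to -0.45 and Timp1 from 0.17 to -0.29. These are counted among the 17. As deposited, 24 genes were called between the lines in 4sU intron, with 0 higher, which goes with the intron totals of the shBmal1 4sU group. As deposited, 0 genes differed in their wave in that layer. In total intron 13 genes were called between the lines with the stricter filter, which tests fewer genes. With a linear term for time, 24-h waves in shBmal1 were called for 0 genes in total exon, 0 in 4sU exon and 0 in 4sU intron. That term left 4 genes in shCTRL 4sU exon, and differences between waves for 2 genes in total exon and 1 in 4sU intron. Without a filter and with the stricter one, the last count was also 1. A 12-h wave was called in shBmal1 for 1 gene as deposited. For the other counts that moved by over 1.5 times, those of differing waves as deposited included, the cause was not tested.

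With each time point left out in turn, the genes called for a 24-h wave numbered 5 (without 40 h) to 15 (without 32 h) in shBmal1 total exon, 4 to 8 in shCTRL 4sU exon, 3 to 13 in shBmal1 4sU exon and 0 to 6 in shBmal1 4sU intron. The waves differed for 2 (without 44 h) to 6 genes in total exon and 0 to 3 in 4sU intron. A 12-h wave in shBmal1 was called for 0 to 6 genes, the most without 32 h. Counts of differences between the lines stayed at 24 to 26 in total exon, 19 to 22 in 4sU exon, 18 to 19 in total intron, 13 to 16 in 4sU intron and 8 to 13 in the ratio. The groups were matched by time point, and total and 4sU libraries by culture. With time point as a replicate block, the between-line calls of Adamts14 (0.222) and Mmp9 (0.0523) ended and Adamts1 (0.0429) was called; no other named call changed. Depth limits Adam8, on 55 to 153 exon reads in shCTRL total RNA, and Adamts4 introns, on 22 to 136 reads in shCTRL 4sU RNA.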
